A study of Mus musculus with 6 samples.

Results

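The genes described here are 10 components of the JAK-STAT pathway: the kinase genes Jak1, Jak2 and Tyk2, the transcription factor genes Stat3, Stat5a and Stat5b, and the feedback inhibitor genes Socs1, Socs2, Socs3 and Cish. They were chosen by name, as the pathway that induces the kinase gene Pim1, and all 10 had a row among the 21878 rows of the expression table. RNA sequencing covered 6 libraries of Neuro-2a, a mouse neuroblastoma cell line, in 3 groups of 2. The control group is labelled wild type, a second group was made to overexpress lncPim1, a long noncoding RNA, and in the third lncPim1 was lowered by RNA interference (knockdown). The labels name no empty vector, no scrambled RNA and no time after treatment, nor do they tell whether a group's 2 libraries are separate cultures. The p-values thus reflect the spread among these libraries alone, which may be technical.

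In this pathway a cytokine or hormone binds its receptor, and Janus kinases bound to the receptor phosphorylate it and the STAT proteins that dock there. STAT dimers then enter the nucleus and switch on genes, among them Pim1 and the SOCS genes. SOCS proteins bind the receptors or the kinases and end the signal, so their transcripts are often read as a sign of recent signalling. In neurons and glia the pathway is known for its response to the interleukin-6 family of cytokines, to which leukaemia inhibitory factor and ciliary neurotrophic factor belong. The data here are transcript levels, and phosphorylation, the step that activates JAK and STAT proteins, was not measured.

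STAT3 and STAT5 dimers bind a palindrome written TTCNNNGAA. Because Socs3 and Cish are known STAT-induced genes, the start regions of the 10 genes were searched for it, from 250 bases before to 50 bases after each RefSeq start on build GRCm38.p6. RefSeq gave 11 such windows for 9 of the genes, all except Socs2. The letters occurred in the windows of 2 genes, Socs3 and Cish, and not in those of the other 7. Of all 32851 RefSeq windows of this length, 8.3% held at least 1 match and 0.457% held 2 or more. The same arms with 4 free bases between them were found in 0 of the 11 windows and in 6.95% of all windows. Both palindromes read the same on either strand. A match describes the letters and does not show that a factor binds there.

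The 3 stretches below show the matches of Socs3 and Cish in capitals, and, for comparison, the region before the start of Stat3, the most abundant of the genes, in which there was no match. Positions count from the RefSeq start. The Socs3 stretch is chr11:117969452-117969616 on the minus strand, positions -250 to -86, with the match starting at -154, and lies in an intron of a longer GENCODE transcript. The Cish stretch is chr9:107296654-107296683 on the plus strand, positions -5 to 25, with matches starting at 1 and 12, and lies in the first exon of a longer GENCODE transcript. The Stat3 stretch is chr11:100939541-100939790 on the minus strand, positions -250 to -1.
Socs3: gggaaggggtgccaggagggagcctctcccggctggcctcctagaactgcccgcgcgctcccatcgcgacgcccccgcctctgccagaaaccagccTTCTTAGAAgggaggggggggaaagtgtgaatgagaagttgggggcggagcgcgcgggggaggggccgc
Cish: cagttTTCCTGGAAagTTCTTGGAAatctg
Stat3: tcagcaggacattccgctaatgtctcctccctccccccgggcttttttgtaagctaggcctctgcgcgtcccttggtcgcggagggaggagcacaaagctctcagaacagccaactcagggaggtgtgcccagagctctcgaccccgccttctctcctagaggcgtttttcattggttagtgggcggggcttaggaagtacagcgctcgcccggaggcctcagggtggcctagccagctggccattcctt

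Values are FPKM, fragments scaled to transcript length and library size, as the authors deposited them, so levels can be compared between genes. Summed FPKM was 277508 and 272528 in the knockdown libraries, below the 294510 to 305463 of the control and overexpression libraries. Per library, 15120 to 15573 rows were above 0. Absolute depth is unknown, and depths relative to control 1, read from the steps of low values, were 0.886 to 1.08. Only 37.9% to 53.1% of the low rows used fell on such steps, so these depths are rough. lncPim1 itself was not analysed here, so the group labels were not checked on the targeted RNA. Of 12 sympathetic and neuroblastoma markers, 11 or 12 were above 0 in every library. Hand2, a transcription factor gene of the lineage, stood between 68.3 and 111.1 FPKM, while Dbh, the gene of the enzyme that makes noradrenaline, stayed between 0.155 and 0.494.

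Other transcripts also differed between the groups. Of 10 tested sympathetic markers, 6 were lower and 1 higher under knockdown, where 31.3% of all tested genes were lower and 14.8% higher (limma, Benjamini-Hochberg adjusted p under 0.05). Under overexpression 2 of the 10, Isl1 (-0.56 ± 0.09) and Tubb3 (-0.27 ± 0.05), were lower. There 0.849% of all tested genes were lower and 0.69% higher. The list summed to 962 and 987 FPKM under knockdown, against 1240 and 1282 in control libraries and 1059 and 1197 under overexpression. The 11 listed transcripts of the digestive tract were all lower under knockdown. The choice of the list and the filter on low values fixed that count in part. Of the 11, 7 are listed at 0 in both knockdown libraries. All 11 were under 1 FPKM there and passed the filter only through the other groups. They stood at a sum of 0.584 and 0.623 FPKM against 24.3 and 31.6 in control libraries and 25.0 and 36.3 under overexpression. Of 8 macrophage and leukocyte markers with a row, 2 were tested, and Cd68 was higher and Lyz2 lower under knockdown. Lyz2 was also lower under overexpression (-0.52 ± 0.08), as was Reg3b of the digestive list, while Pnlip of that list was higher. Reg3b passed the filter only through the control libraries (3.37 and 2.32 FPKM). Pnlip passed it only through the overexpression libraries (2.24 and 3.38 FPKM), so the filter favoured both calls. Cd68, which passed the filter through the knockdown libraries, was at 0.348 and 0.397 FPKM in control libraries and at 3.31 and 4.31 under knockdown, 10.2 times the control mean. The macrophage and leukocyte list summed to 9.25 and 9.44 FPKM under knockdown, 6.86 and 7.47 in control libraries and 4.97 and 5.16 under overexpression. Of that list, Ptprc, Csf1r, Itgam and Adgre1 did not exceed 0.0306 FPKM in any library. Below the filter, Tyrobp was at 0.123 and 0 FPKM in control libraries and at 0.643 and 0.350 under knockdown, and Aif1 at 0 and 0.0432 and at 0.165 and 0.118. Of 10 fibroblast and endothelial markers 2 were tested, and Pdgfrb, which passed the filter through the treated groups, was higher under knockdown. That list summed to 4.56 and 5.22 FPKM under knockdown, 3.39 and 4.20 in control libraries and 3.94 and 4.10 under overexpression. The part of these transcripts in the results on the pathway was not tested.

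In control cells Stat3 and Jak1 had the highest transcript levels of the 10 genes. Stat3 stood at 22.9 and 23.9 FPKM and Jak1, the kinase shared by the receptors of interleukin-6, interferons and many other cytokines, at 22.9 and 23.2. Their ranges overlapped. Socs1 followed at 5.49 and 7.68, a range that overlapped that of Stat5b (5.38 and 5.57). Tyk2 stood at 4.35 and 4.39 and Jak2 at 2.76 and 3.15, and these did not overlap with each other. Socs3 (1.91 and 2.18) and Stat5a (1.77 and 2.02) overlapped. Socs2 was at 0.783 and 0.838, and Cish, at 0.229 and 0.616, was the lowest of the 10.

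**Figure D1:**
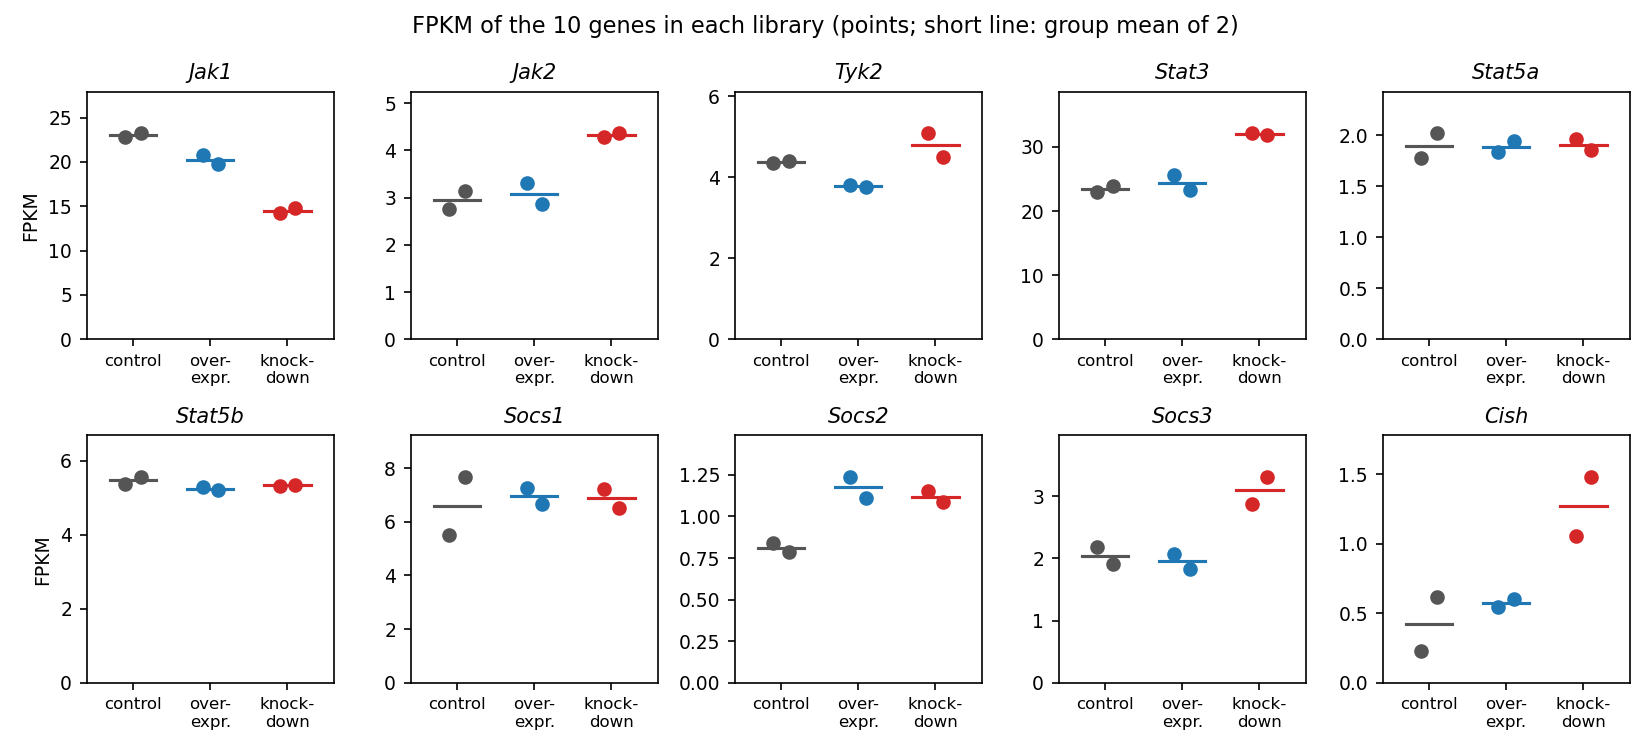
FPKM (vertical axes, from 0, each gene on its own scale) of the 10 genes in each of the 6 libraries, by group (horizontal axes). Points are libraries and short lines are means of 2. In the knockdown group Jak1 sits at 14.2 and 14.8, below the other 4 libraries, and Stat3 at 31.9 and 32.1, above them.

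The first comparison, of knockdown with control cells, asks how the pathway's genes stood when lncPim1 was lowered. Jak1 was lower, and Jak2, Stat3 and Socs3 were higher. Of the 10 genes, 9 passed the minimum mean of 1 FPKM over all libraries and were tested, and Cish did not. Genes were called at an adjusted p under 0.05 (limma, Benjamini-Hochberg over all 10721 genes tested). Of the 9 tested genes 3 were called higher and 1 lower. The background was high: of all tested genes 46.2% were called under knockdown, 14.8% higher and 31.3% lower. The share of calls among the tested genes of the pathway, 44.4%, lay near that background. After scaling by median log ratio, 2245 genes were higher and 2286 lower in place of 1590 and 3358, and the 4 called genes of the pathway kept their directions and calls. Their calls also held under every other alternative in which they were tested. Fold changes are on the log2(FPKM + 1) scale, which understates the change of low genes.

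Jak1 went from 22.9 and 23.2 FPKM in control libraries to 14.2 and 14.8 under knockdown, 0.628 of the control mean. The log2 fold change was -0.64 ± 0.05 (SE; limma, Benjamini-Hochberg adjusted p = 1.30e-04), and 3.53% of tested genes moved further. Over the 15 alternatives its log2 fold change stayed between -0.67 and -0.53. Both knockdown libraries were below all 4 others. Jak1 lies on chromosome 4 from 101152367 to 101265282 on the minus strand of build GRCm38.

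Jak2, the kinase of the receptors for growth hormone, erythropoietin and leptin, moved the other way. It stood at 2.76 and 3.15 FPKM in control libraries and at 4.28 and 4.36 under knockdown, 1.46 times the control mean. Its log2 fold change was 0.43 ± 0.09 (limma, adjusted p = 0.00401). Its gene, on the plus strand of chromosome 19, spans 29251828 to 29313080. Tyk2, a kinase of the interferon and interleukin-12 receptors, was at 5.08 and 4.50 FPKM under knockdown against 4.35 and 4.39, with a difference of 0.11 that was not called (95% interval -0.06 to 0.28). Tyk2 shares 554 exonic bases with the antisense gene 1700084C06Rik, and whether the counting used strand is not stated in the notes used here, so reads from those bases cannot be assigned.

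With Jak3, the Janus kinase of lymphoid receptors, the summed kinase level was 30.7 and 31.7 FPKM in control libraries, 29.0 and 27.3 in overexpressing cells and 25.1 and 25.0 in knockdown cells. Jak1 made up 74.4% and 73.3% of that sum in control libraries, 71.4% and 72.4% in overexpressing cells and 56.6% and 58.9% in knockdown cells. The ratio of Jak1 to Jak2 was 8.29 and 7.39 in control libraries, 6.28 and 6.89 in overexpressing cells and 3.32 and 3.38 in knockdown cells. These shares are descriptions of the same values and were not tested.

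**Figure D2:**
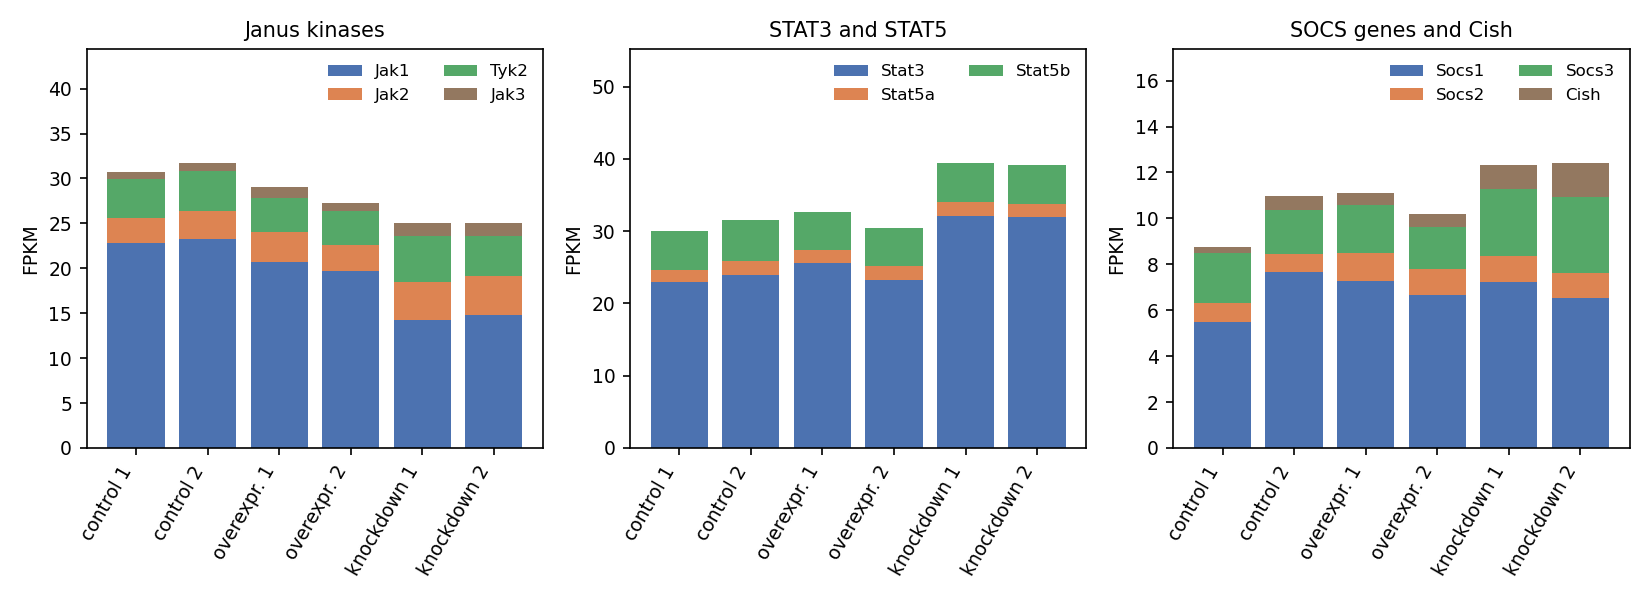
Stacked FPKM (vertical axes, from 0) of the Janus kinases, of Stat3 with Stat5a and Stat5b, and of the SOCS genes with Cish, for each of the 6 libraries (horizontal axes). The Jak1 segment is shortest in the knockdown libraries, where the Stat3 segment is tallest.

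Stat3, the main transducer of interleukin-6 type signals, stood at 22.9 and 23.9 FPKM in control libraries and at 32.1 and 31.9 under knockdown. The fitted difference was 0.44 ± 0.06 (limma, adjusted p = 6.19e-04), 1.37 times the control mean. Over the 15 alternatives the log2 fold change was 0.41 to 0.57. Stat5a and Stat5b, the near-identical transducers of growth hormone, prolactin and many interleukins, were not called. Stat5a was at 1.96 and 1.86 FPKM under knockdown against 1.77 and 2.02 (difference 0.01, 95% interval -0.19 to 0.20). Stat5b was at 5.31 and 5.35 against 5.38 and 5.57 (difference -0.03, interval -0.18 to 0.11). Changes of the size seen for Stat3 lie outside both intervals.

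The 3 STAT genes are neighbours on chromosome 11. Stat5b spans 100780731 to 100850724 on the minus strand, Stat5a 100859351 to 100885169 on the plus strand and Stat3 100885098 to 100939540 on the minus strand. Stat3 and Stat5a overlap tail to tail in 72 exonic bases. Of the distinct 50-base stretches in GENCODE transcripts, 8.21% of those of Stat5a also occur in Stat5b, and 11% of those of Stat5b in Stat5a, so reads there are uncertain between the paralogs. Stat3 was 76.2% and 75.9% of the summed level of the 3 genes in control libraries, 78.2% and 76.5% under overexpression and 81.6% in both knockdown libraries. The ratio of Stat3 to Jak1 was 1.00 and 1.03 in control libraries, 1.23 and 1.18 in overexpressing cells and 2.26 and 2.16 in knockdown cells.

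Among the feedback genes, Socs3, whose product inhibits the kinases bound to the shared receptor chain of the interleukin-6 family, was the only one called of the 3 tested under knockdown. It stood at 2.18 and 1.91 FPKM in control libraries and at 2.88 and 3.31 under knockdown, 1.52 times the control mean. Its log2 fold change was 0.43 ± 0.09 (limma, adjusted p = 0.00617). Leaving out any of the 6 libraries kept the call, with adjusted p-values of 0.00818 to 0.0475. Socs3 lies on chromosome 11 from 117966079 to 117970047 on the minus strand.

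Cish, a STAT5-induced inhibitor with 2 of the palindromes shown above, was at 0.229 and 0.616 FPKM in control libraries, 0.547 and 0.602 in overexpressing cells and 1.06 and 1.48 in knockdown cells. Both knockdown libraries were above the other 4, and the control libraries differed from each other by more than the overexpression libraries did. Its mean over all libraries was 0.756, below the filter. Without a filter its difference under knockdown was 0.68 ± 0.16 (limma, adjusted p = 0.0308 over 17311 genes) and under overexpression 0.16 ± 0.16 (adjusted p = 0.732). Cish, on chromosome 9 from 107296026 to 107302784, shares 479 exonic bases with the antisense gene Gm17041 and 261 with the pseudogene Gm17040 on the other strand, so these low values are uncertain.

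Socs1, a direct inhibitor of the kinases and a known interferon-induced gene, was at 7.23 and 6.52 FPKM under knockdown, between the control libraries at 5.49 and 7.68. Its difference of 0.07 was not called (95% interval -0.21 to 0.35), and the control libraries were the widest apart of any group for this gene. Socs2, which restrains growth hormone signalling, was at 1.15 and 1.09 under knockdown against 0.838 and 0.783 in control libraries, without overlap. Its difference of 0.23 ± 0.09 was not called (limma, adjusted p = 0.0738), but was called without a filter (0.0438), after scaling by median log ratio (0.0454) and without the expression trend (0.0183). Its mean over all libraries, 1.04 FPKM, passed the filter through the treated groups, since both control libraries are under 1. In 7 of the 9 tested genes the knockdown and control libraries did not overlap, beside 74.4% of all tested genes.

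**Figure D3:**
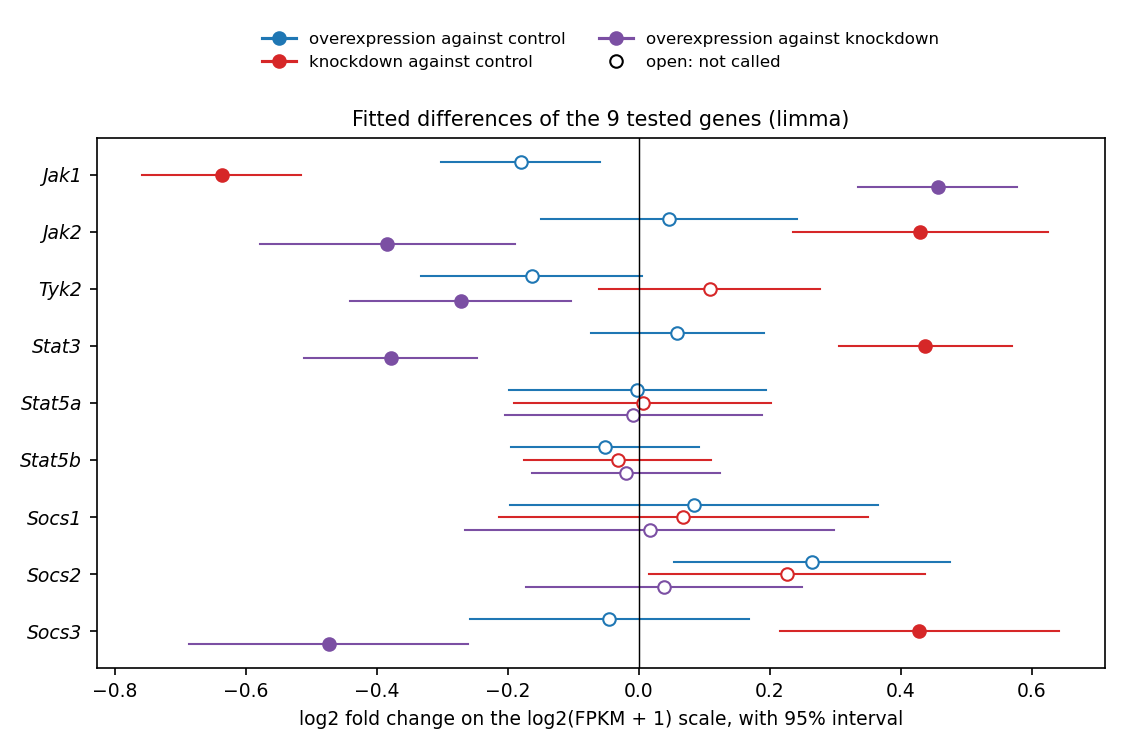
Fitted log2 fold changes (points, horizontal axis, log2(FPKM + 1) scale) with 95% intervals (lines) of the 9 tested genes in 3 comparisons. Filled points were called by limma at an adjusted p under 0.05, and all 9 points of overexpression against control are open.

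The second comparison, of overexpressing with control cells, asks how the same genes stood when lncPim1 was raised. Limma called 0 of the 9 tested genes, and 2, Jak1 and Socs2, had an unadjusted p under 0.05. Of all tested genes 1.54% were called, 0.69% higher and 0.849% lower, and 0 of 9 lies near that background. The 2 contrasts against control use the same control libraries. In 4 of the 9 genes the groups did not overlap, beside 49.5% of all tested genes.

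Jak1 stood at 20.7 and 19.7 FPKM under overexpression, below both control libraries (22.9 and 23.2) and above both knockdown libraries. Its difference from control was -0.18 ± 0.05 (limma, adjusted p = 0.138; unadjusted 0.00848). Socs2 stood at 1.24 and 1.11 FPKM, above both control libraries, and its difference of 0.26 ± 0.09 was not called either (limma, adjusted p = 0.194). Tyk2, at 3.82 and 3.77 FPKM, was below both control libraries by a difference of -0.16 (95% interval -0.33 to 0.01).

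Stat3 was at 25.6 and 23.3 FPKM under overexpression, a range that overlapped the control libraries, and the interval of its difference, -0.07 to 0.19, ended below the 0.44 measured under knockdown. Jak2 was at 3.30 and 2.86 FPKM (interval -0.15 to 0.24) and Socs3 at 2.07 and 1.83 (interval -0.26 to 0.17). Socs1 was at 7.27 and 6.66 FPKM (interval -0.20 to 0.37), Stat5a at 1.84 and 1.94 (interval -0.20 to 0.19) and Stat5b at 5.28 and 5.20 (interval -0.20 to 0.09). Pim1 stood at 16.2 and 18.8 FPKM in control libraries, 23.5 and 24.1 in overexpressing cells and 24.4 and 23.1 in knockdown cells, so it was higher than control in both treated groups. Pim1 shares 488 exonic bases with the antisense gene Gm26885, so reads from those bases cannot be assigned here either. The call of Pim1 under overexpression (limma, adjusted p = 0.0294) was lost in 6 of 15 alternatives, and that under knockdown (0.00179) in 0 of 15.

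Overexpression and knockdown were compared directly, since a call in one contrast against control and not in the other does not show a difference between the treated groups. Of the 9 tested genes, limma called 1 higher and 4 lower under overexpression than under knockdown. Of all tested genes 40.5% were called, 28.1% higher and 12.4% lower. After scaling by median log ratio 1951 genes were higher and 1908 lower in place of 3013 and 1332. Jak1 was higher by 0.46 ± 0.05 (limma, adjusted p = 6.10e-04). Stat3 was lower by 0.38, with a log2 fold change of -0.38 ± 0.06 (limma, adjusted p = 0.00169), as were Socs3 (-0.47 ± 0.09, 0.00483), Jak2 (-0.38 ± 0.09, 0.00823) and Tyk2 (-0.27 ± 0.07, 0.0191).

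Tyk2 is the gene for which neither treated group was called against control while the treated groups differed from each other. Its libraries were at 3.82 and 3.77 FPKM under overexpression and at 5.08 and 4.50 under knockdown. The Tyk2 call was lost without knockdown replicate 1 (limma, adjusted p = 0.114), without overexpression replicate 1 (0.0624) or replicate 2 (0.0762), and without a filter (0.0503). The Jak2 call was lost without overexpression replicate 2 (limma, adjusted p = 0.0551). The groups did not overlap in 6 of the 9 genes, beside 71.9% of all tested genes. Stat5a, Stat5b, Socs1 and Socs2 were not called, with differences of -0.01, -0.02, 0.02 and 0.04.

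Other genes of the pathway were described from 5 lists, which were chosen with earlier results of these data known. Of 17 genes for cytokines and hormones that signal through JAKs, 8 were tested, and under knockdown 7 were higher and 0 lower. Their median log2 fold change was 0.53, against -0.07 over all tested genes. The share called, 87.5%, was beside 46.2% of all tested genes, 14.8% higher and 31.3% lower. Il6, which encodes interleukin-6, stood at 5.39 and 6.35 FPKM in control libraries, 8.57 and 7.68 in overexpressing cells and 15.0 and 16.9 in knockdown cells, with a log2 fold change of 1.30 ± 0.09 in knockdown cells (limma, adjusted p = 7.81e-05). Osm, the oncostatin M gene, rose by 0.48 ± 0.08 and Lif, the leukaemia inhibitory factor gene, by 0.45 ± 0.09. Under overexpression limma called 0 of the 8, and 1 had an unadjusted p under 0.05. Compared directly, 0 of the 8 were higher and 6 lower under overexpression than under knockdown, Il6, Osm and Lif among the lower. That share, 75%, was beside 40.5% of all tested genes, 28.1% higher and 12.4% lower.

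Of 23 receptor genes 11 were tested, and under knockdown 1 was higher and 2 lower, with a median of -0.06 against -0.07 over all tested genes. The share called, 27.3%, was beside 46.2% of all tested genes. Il4ra, the interleukin-4 receptor gene, rose by 0.33 ± 0.10. Il10rb, a chain of the interleukin-10 and interferon lambda receptors, went from 18.7 and 18.4 FPKM in control libraries to 13.0 and 12.0 (-0.54 ± 0.06), and Cntfr, the ciliary neurotrophic factor receptor gene, from 4.25 and 4.60 to 2.86 and 3.10 (-0.45 ± 0.08). Named after their values were seen, Il6st, the signal-transducing chain shared by the interleukin-6 family, was at 13.5 to 16.4 FPKM in the 6 libraries and not called, and the receptor genes Lifr and Osmr did not exceed 0.00841 FPKM in any library. Il6ra was between 0.194 and 0.501. Under overexpression limma called 0 of the 11 receptors, with 3 at an unadjusted p under 0.05. Between the treated groups 3 were higher under overexpression, Il10rb and Cntfr among them, and 0 lower. That share, 27.3%, was beside 40.5% of all tested genes. Il4ra was not called there (limma, adjusted p = 0.604).

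Of the 10 remaining kinase, STAT and SOCS genes, with Irf9, 9 were tested. Under knockdown 5 were higher and 0 lower, with a median of 0.20 against -0.07 over all tested genes. The share called, 55.6%, was beside 46.2% of all tested genes, 14.8% higher and 31.3% lower. Irf9, a DNA-binding factor of the interferon response, went from 1.60 and 1.21 FPKM to 2.99 and 2.83 (0.71 ± 0.10) and Stat2 from 6.48 and 6.01 to 8.14 and 8.08 (0.33 ± 0.07). Socs5 rose by 0.36 ± 0.09. Jak3 also rose, by 0.43 ± 0.10, but it passed the filter through the knockdown libraries (1.54 and 1.42 FPKM, against 0.764 and 0.924 in control libraries). The fifth, Socs4, rose by 0.20 ± 0.07 and is named after its value was seen. Limma called 0 of the 9 under overexpression, and 2 had an unadjusted p under 0.05. In the direct comparison 0 were higher and 3 lower under overexpression than under knockdown: Irf9, Stat2 and Socs5. That share, 33.3%, was beside 40.5% of all tested genes, 28.1% higher and 12.4% lower. Jak3 (limma, adjusted p = 0.0594) and Socs4 (0.957) were not called there. Socs4 stood 0.20 ± 0.07 above control under overexpression too, without a call.

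Of 16 other regulators 14 were tested, and under knockdown 3 were higher and 5 lower, with a median of -0.08 against -0.07 over all tested genes. The share called, 57.1%, was beside 46.2% of all tested genes. Sh2b3, an adaptor that restrains Jak2 signalling, rose by 0.46 ± 0.05, from 11.3 and 11.2 FPKM to 16.1 and 15.7. Ptpn11, the phosphatase SHP2, fell by 0.39 on the log2 scale, from 27.1 and 27.3 FPKM to 20.3 and 20.6. The endosomal sorting adaptors Stam and Stam2 moved in opposite directions, with log2 fold changes of 0.36 ± 0.07 and -0.34 ± 0.06. Under overexpression limma called 0 of the 14, with 0 at an unadjusted p under 0.05. Between the treated groups 4 were higher under overexpression, Ptpn11 and Stam2 among them, and 2 lower, Sh2b3 and Stam. That share, 42.9%, was beside 40.5% of all tested genes.

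Of 24 known targets of STAT3 and STAT5, 20 were tested. Under knockdown 12 were higher and 2 lower, with a median of 0.41 against -0.07 over all tested genes. The share called, 70%, was beside 46.2% of all tested genes, 14.8% higher and 31.3% lower. Junb, an AP-1 subunit gene, went from 37.0 and 38.2 FPKM to 81.9 and 85.8 (1.14 ± 0.05), Timp1, a metalloproteinase inhibitor gene, from 2.76 and 3.61 to 11.8 and 11.5 (1.60 ± 0.09), and Vegfa, a vascular growth factor gene, from 27.0 and 30.2 to 44.3 in both libraries (0.62 ± 0.06). Fos rose by 0.77 ± 0.09. The 2 lower genes, named after their values were seen, were Ccnd1, the cyclin D1 gene (-0.35 ± 0.05), and Birc5, the survivin gene (-0.28 ± 0.07). Under overexpression 2 of the 20 were higher, Pim1 and Timp1 (0.84 ± 0.09), and 0 lower, with a median of 0.10 against -0.003 over all tested genes. Of all tested genes 0.69% were higher and 0.849% lower in that comparison. Compared directly, 1 target was higher under overexpression than under knockdown, Ccnd1, and 8 were lower, Junb, Timp1, Vegfa and Fos among them. That share, 45%, was beside 40.5% of all tested genes, 28.1% higher and 12.4% lower. Many of these targets also answer to other pathways, and no test assigned their changes to STAT proteins.

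**Figure D4:**
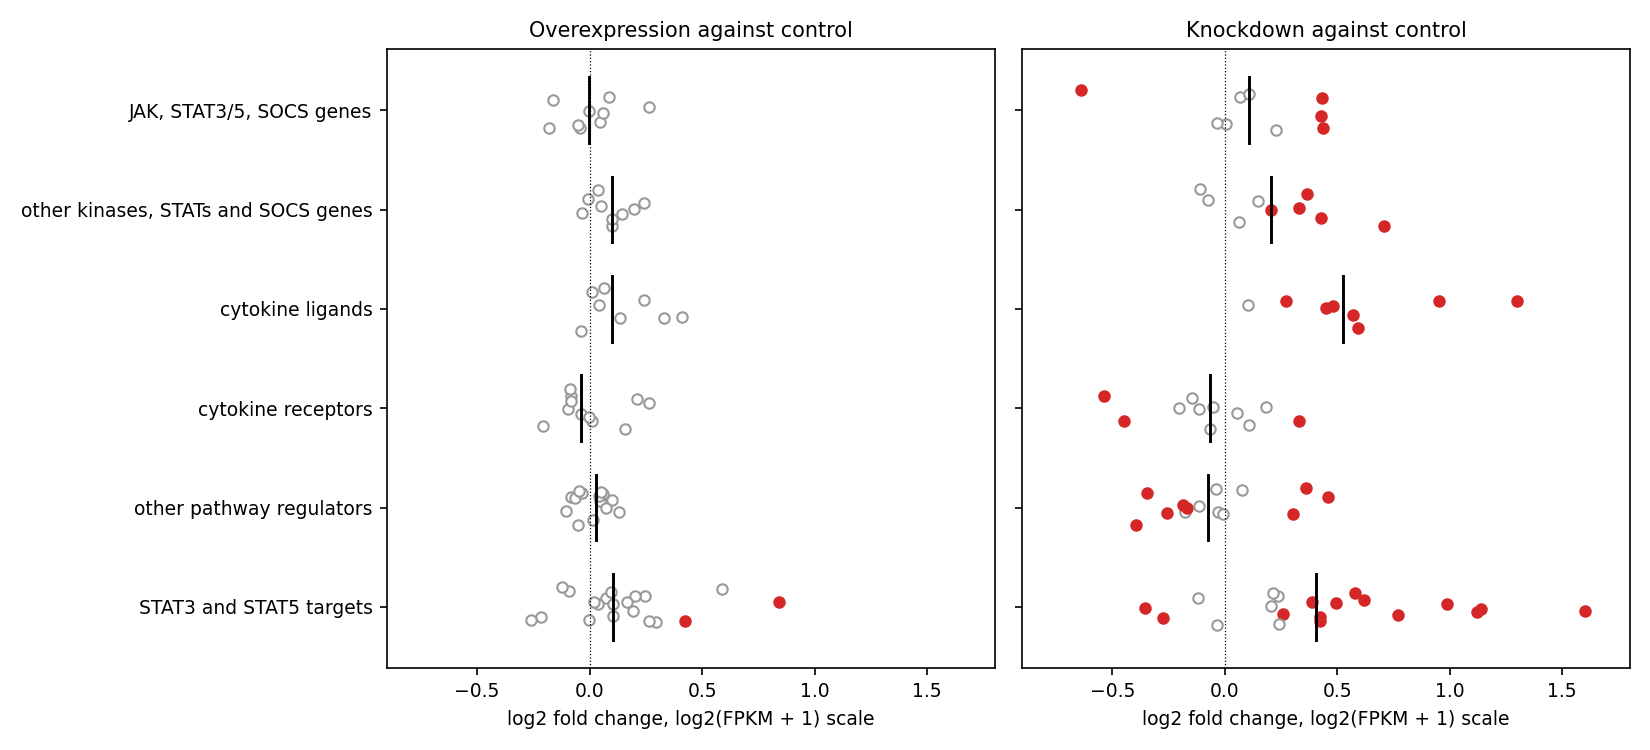
Log2 fold change (horizontal axes, log2(FPKM + 1) scale) of each tested gene in 6 lists (rows), under overexpression and under knockdown, against control. Filled points were called by limma, open points were not, black bars are list medians, and vertical scatter within a row is only for legibility. Under knockdown 7 of 8 cytokine ligands and 12 of 20 targets are filled to the right of 0.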

How the data were processed

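Build mm10 and the tools HISAT2, Cufflinks, HTSeq, DESeq and Trimmomatic are named in the submitters' processing notes. Per the labels' protocols, the library kit was stranded and selected mRNA. The tool versions, gene annotation and use of strand are not stated there. The authors deposited FPKM values for 6 libraries, and counts are not recovered from them. The 10721 genes whose mean reached 1 FPKM were fitted as log2(FPKM + 1) with limma 3.58.1 in R 4.3.3, with 1 mean per group, an expression trend, 3 residual degrees of freedom, and Benjamini-Hochberg adjustment over all of them. The fit was checked on simulated data. Coordinates are from GENCODE on GRCm38, the same assembly as mm10. The 10 genes and the lists were chosen with earlier results of these data known. Named in each list were up to 4 called genes per contrast by smallest p, and Pim1. Some genes of the lists are not reported here by name. There were 15 alternatives: no filter, a filter at 5 FPKM, pseudocounts of 0.1 and 0.5, 2 scalings, no trend, only the 4 libraries of a contrast, a replicate block, and each library left out.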

Additional observations from a re-analysis of the deposited data

How the results depend on the processing

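Over the alternatives, 355 values of single genes of the pathway kept their direction and side of the threshold, 5 lost and 3 gained a call, and 22 changed sign, none of these called. With libraries left out in turn, genes called under overexpression numbered 13 to 176, against 165. They numbered 9 without a filter, 97 without the trend and 66 with a replicate block, which changed no call of the 10 genes, though Pim1 under overexpression was then not called (limma, adjusted p = 0.0544). The replicate numbers are only numbers in the titles. Deviations of same-numbered libraries correlated at -0.117, 0.00692 and -0.211 between groups, so the numbers were not taken to pair the libraries. With a filter at 5 FPKM 4 of the 10 genes were tested, so 2 were called under knockdown and 2 between the treated groups, where 3 to 5 were called with libraries left out.

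Sign changes were as follows. Under overexpression, with libraries left out, Jak2 ranged from -0.031 to 0.12, Stat3 from -0.0062 to 0.12, Stat5a from -0.064 to 0.059, Socs1 from -0.13 to 0.29 and Socs3 from -0.11 to 0.020. Under knockdown Stat5a ranged from -0.055 to 0.068 and Socs1 from -0.14 to 0.28, and between the treated groups Stat5a from -0.036 to 0.019 and Socs1 from -0.048 to 0.081. After scaling by median log ratio Stat5a was at 0.00065 under overexpression, Stat5b at 0.039 under knockdown, and Socs1 at -0.053 and Socs2 at -0.0045 between the treated groups. After quantile normalization Stat5a was at -0.060 under knockdown and 0.047 between the treated groups, and Socs1 there at -0.0072. The cause of the changes was not tested. Leaving out a library leaves 1 in its group, assumed to vary like the others. With 2 libraries a group and no counts, small differences can be missed, so a gene not called may still differ.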

Other observations

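Gh, the growth hormone gene, whose product signals through Jak2 and Stat5b in its target tissues, was listed at 26.0 and 24.8 FPKM in control libraries, 26.6 and 29.4 in overexpressing cells and 30.3 and 31.5 in knockdown cells, and was called higher under knockdown (0.27 ± 0.06; limma, adjusted p = 0.00690). It was named after its values were seen. Its receptor gene Ghr was at 0.339 and 0.307 FPKM in control libraries, 0.741 and 0.879 in overexpressing cells and 0.434 and 0.440 in knockdown cells, below the filter.

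Cntf, the ciliary neurotrophic factor gene, was called higher under knockdown (0.95 ± 0.20; limma, adjusted p = 0.00511), and its libraries were at 1.02 and 1.22 FPKM in control cells, 1.58 and 1.75 in overexpressing cells and 2.17 and 4.30 in knockdown cells, with the 2 knockdown libraries far apart. It too was named after its values were seen. Ptpn6, the phosphatase SHP1, a brake on JAK signalling in blood cells, was below the filter at 0.281 and 0.251 FPKM in control libraries, 0.352 and 0.333 in overexpressing cells and 0.865 and 0.920 in knockdown cells.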
